A study of Mus musculus with 5 samples.

Results

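Smooth muscle cells and pericytes form the mural layer of blood vessels. Smooth muscle cells contract through myosin whose light chain is phosphorylated by a calcium-dependent kinase, and pericytes sit on capillaries and are recruited and kept there by PDGF signals from the endothelium and by Notch signalling. In the heart they set coronary tone and capillary stability. The 10 genes described here mark these cells and were chosen by name. They are Myh11, Cnn1, Tagln, Smtn and Mylk of the contractile apparatus, and Pdgfrb, Rgs5, Abcc9, Cspg4 and Notch3 of pericytes and mural cell signalling. All 10 had at least 1 region in the deposited table, out of 18161 genes with a region. Together they were assigned 30 of the 30965 regions.

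The measured mark was propionylation of lysine 23 of histone H3 (H3K23Pr), an acyl mark whose donor, propionyl-CoA, is produced in part by breakdown of the branched-chain amino acids isoleucine and valine. Hearts came from male mice of the C57Bl/6J strain, 12 weeks old, and the mark was mapped by ChIP-seq (sequencing of the DNA recovered with an antibody to it). The 4 groups were a diet free of branched-chain amino acids (BCAA-free) with transverse aortic constriction (TAC, which loads the left ventricle with pressure), the BCAA-free diet with sham surgery, a BCAA-control diet with TAC, and the BCAA-control diet with sham surgery. The diets began 4 days before surgery and were kept for the 2 weeks until the hearts were taken. Each group was 1 library from a pool of 3 hearts, so no difference below has a replicate check, and no p-value or SD is given. A pooled input library was sequenced too and has no column in the table. Group membership was read from the titles; for 3 samples the treatment field says otherwise.

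Signal is the average coverage over a region, per base, in the scale of the authors. Ratios are plain ratios of average signal, with an exact 95% binomial interval from approximate tags that covers counting error only. Each gene was read at its region of highest mean signal over the 4 libraries and at the region that holds its start or lies closest to it (the start region). The regions were the same for Tagln, Smtn, Pdgfrb, Rgs5 and Abcc9, which is 5 of the 10 genes. The start region held the annotated start in 9 of 10 genes, Mylk being the exception. Coordinates are on mm10. The hearts were whole pools of cell types, so fewer cells of a type and less mark per cell cannot be told apart.

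Regions of these genes were long. The 30 regions had a median length of 9599 bp, against 5599 bp over all regions, and 16 held a promoter. At the start region 5 of 10 genes had a CpG island, against 75.5% of all genes. At the highest-mean region it was 4 of 10, against 75.2% of all genes. The median signal at the start region was 11.4 for the 10 genes and 14.3 for all genes. Without an island it was 7.79 for the 5 such members (Cnn1, Tagln, Mylk, Rgs5 and Abcc9), against 9.21 for all genes of that kind. Of the 30 regions, 20 were called in all 4 libraries (66.7%, against 58.3% of all regions). A region called in some libraries only is in the table through those libraries, so a higher value in them is partly built in. A region carried between 32.7 and 7757 approximate tags in a library, with a median of 338.6.

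Promoter sequences are shown for their CpG content. RefSeq (GRCm38.p6) supplied a window of 300 bases, around the annotated start, for 7 of the 10 genes; Myh11, Tagln and Pdgfrb had no match. Of the 7 windows, 6 lay inside a region of the table, and that of Mylk did not. Windows are shown for a pair of genes with low promoter signal (Cnn1 and Rgs5) and for a pair whose start region holds a CpG island (Cspg4 and Notch3). They lie at chr9:22099003-22099302 on the plus strand for Cnn1, chr1:169655251-169655550 on the plus strand for Rgs5, chr9:56864854-56865153 on the plus strand for Cspg4 and chr17:32166841-32167140 on the minus strand for Notch3. Capitals mark CpG dinucleotides, and each sequence runs 5′ to 3′ along its gene.
Cnn1: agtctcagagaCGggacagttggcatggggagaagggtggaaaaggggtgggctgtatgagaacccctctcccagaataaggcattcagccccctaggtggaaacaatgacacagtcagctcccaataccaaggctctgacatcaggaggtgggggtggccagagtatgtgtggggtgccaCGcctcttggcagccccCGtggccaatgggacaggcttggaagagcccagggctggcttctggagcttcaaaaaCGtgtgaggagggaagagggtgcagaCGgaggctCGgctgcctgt
Rgs5: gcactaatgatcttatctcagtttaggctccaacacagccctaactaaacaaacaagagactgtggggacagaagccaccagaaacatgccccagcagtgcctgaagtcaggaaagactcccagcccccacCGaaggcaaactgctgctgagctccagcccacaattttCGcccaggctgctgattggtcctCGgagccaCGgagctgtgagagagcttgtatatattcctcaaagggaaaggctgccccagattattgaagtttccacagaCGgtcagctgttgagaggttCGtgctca
Cspg4: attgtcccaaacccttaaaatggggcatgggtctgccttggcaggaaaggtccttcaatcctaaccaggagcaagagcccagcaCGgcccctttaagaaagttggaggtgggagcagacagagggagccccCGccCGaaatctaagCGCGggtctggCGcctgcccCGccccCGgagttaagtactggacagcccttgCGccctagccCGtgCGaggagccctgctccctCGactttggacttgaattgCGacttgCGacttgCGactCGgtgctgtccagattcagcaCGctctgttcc
Notch3: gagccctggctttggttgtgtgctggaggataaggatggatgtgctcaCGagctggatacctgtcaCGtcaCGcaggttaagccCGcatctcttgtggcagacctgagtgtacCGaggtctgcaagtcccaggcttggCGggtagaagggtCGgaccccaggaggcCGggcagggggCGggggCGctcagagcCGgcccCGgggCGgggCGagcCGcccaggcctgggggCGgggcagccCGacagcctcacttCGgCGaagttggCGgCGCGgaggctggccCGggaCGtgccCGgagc
The Cnn1 and Rgs5 windows held 6 CpG dinucleotides each, the Cspg4 window 17 and the Notch3 window 25, against a median of 7 over 32851 RefSeq promoter windows. Mean signal over the region that holds the window was 5.53 for Cnn1, 7.79 for Rgs5, 14.2 for Cspg4 and 11.8 for Notch3. The CArG box, the element bound by serum response factor, was searched on both strands and matched in 0 of the 7 windows, against 1.63% of all windows. The MCAT element, spelled CATTCC and searched on both strands, was found in 3 of 7 windows (Smtn, Mylk and Abcc9), against 14.7% of all windows. The RBPJ motif, spelled GTGGGAA and searched on both strands, was in 0 of 7, against 6.38%. Since only MCAT matched, no motif overlapped another in these windows.

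The first question was how the mark at these genes differed after pressure overload on each diet. On the BCAA-control diet the contractile genes had signal at or above sham, and the pericyte and mural signalling genes were divided, with Cspg4 and Notch3 above sham and Pdgfrb, Rgs5 and Abcc9 below. All 5 contractile genes had ratios above 1 at both regions, from 1.01 to 1.72 at the highest-mean region. For Tagln and Smtn the highest-mean and start regions are the same. Cspg4 and Notch3 had ratios above 1 at both of their regions. Pdgfrb, Rgs5 and Abcc9, whose highest-mean and start regions are the same, had ratios below 1. Each ratio of these 5 pericyte and mural signalling genes had its interval clear of 1. Of the 5 contractile genes, intervals were clear of 1 for Myh11, Cnn1 and Smtn at the highest-mean region. At the start region they were clear for Cnn1 and Smtn. Over all regions of the table the median log2 ratio on this diet was 0.17, and 68.7% of regions lay above 1. Of all genes at their highest-mean region, 88.0% lay above 1. Approximate tags summed over regions were 18.9 M in BCAA-control TAC and 16.9 M in BCAA-control sham. The part of library scaling in this shift was not tested. Centred on the median of all regions, Tagln, Smtn, Mylk and Cspg4 were below 0 at the highest-mean region while Myh11, Cnn1 and Notch3 stayed above, and Pdgfrb, Rgs5 and Abcc9 lay further below. At the start region Myh11, Tagln, Smtn and Cspg4 were below 0, and Cnn1, Mylk and Notch3 stayed above.

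On the BCAA-free diet the 10 genes split evenly, with 5 above and 5 below sham at the highest-mean region, where 42.0% of all genes lay above. The median log2 ratio was -0.026, beside -0.044 over all genes. Intervals were clear of 1 upward for Myh11, Mylk and Notch3, and downward for Tagln, Pdgfrb and Cspg4. The median on the BCAA-control diet was 0.11, beside 0.27 over all genes, and -0.059 once centred. At the start regions it was -0.034 on the BCAA-free diet and 0.10 on the BCAA-control diet.

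Few of these genes passed 1.5-fold. On the BCAA-free diet 0 of 10 were at least 1.5-fold higher in TAC at the highest-mean region, where 3.79% of all genes were, and 0 were lower, where 4.88% were. On the BCAA-control diet 2 of 10 (Myh11 and Cnn1) were higher, where 5.86% of all genes were, and 0 were lower, where 0.694% were. The Myh11 region was called in the 2 TAC libraries and the Cnn1 region in BCAA-control TAC alone, so both are in the table through libraries in which they are high, and their ratios are descriptions. At the start regions Mylk was the 1 gene lower on the BCAA-free diet, where 5.09% of all genes were, and 0 of 10 were higher, where 3.85% were. There 0 of 10 were higher on the BCAA-control diet, where 6.03% of all genes were, and 0 lower, where 0.837% were. The Mylk start region was called in every library but BCAA-free TAC, so its direction on the BCAA-free diet is partly built in. Over the 30 regions of these genes, 1 was higher and 2 were lower on the BCAA-free diet, where 10.7% of all regions were higher and 11.7% lower. The BCAA-control diet had 2 higher and 0 lower, where 7.82% of all regions were higher and 3.4% lower. With so few genes past the threshold, these shares are not a result about the list.

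**Figure D1:**
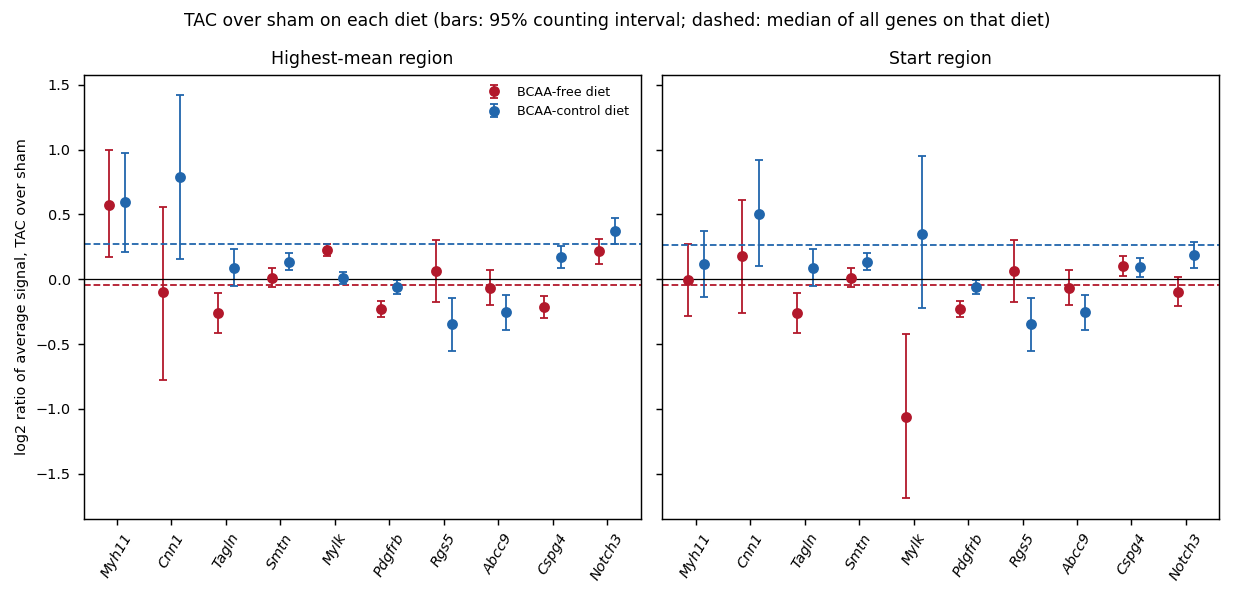
Log2 ratio of average signal, TAC over sham, for each gene at its highest-mean region (left) and start region (right), with the BCAA-free diet in red and the BCAA-control diet in blue; bars are 95% counting intervals and dashed lines the median of all genes on that diet. On the BCAA-control diet Pdgfrb, Rgs5 and Abcc9 lie below 0 and Cspg4 and Notch3 above 0 in both panels, and the start region of Mylk on the BCAA-free diet is the lowest point, at -1.06. Both panels show the same region for Tagln, Smtn, Pdgfrb, Rgs5 and Abcc9.

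Among the contractile genes, Myh11 encodes the myosin heavy chain of smooth muscle. Its highest-mean region, at chr16:14193400-14195999 centred in the gene and shared with Nde1, had a signal of 10.9 in BCAA-free TAC, 7.35 in BCAA-free sham, 12.9 in BCAA-control TAC and 8.53 in BCAA-control sham. Both TAC libraries, the only ones in which it was called, were above both sham libraries. The TAC-over-sham ratio was 1.49 (1.13 to 1.99) on the BCAA-free diet and 1.51 (1.16 to 1.96) on the BCAA-control diet. By peak signal the ratio was 0.833 on the BCAA-free diet and 1.95 on the BCAA-control diet, so the direction on the BCAA-free diet was the opposite with that measure.
At the Myh11 start region, chr16:14289600-14295399, upstream by its centre and shared with Fopnl, signal was 8.42 in BCAA-free TAC, 8.44 in BCAA-free sham, 10.3 in BCAA-control TAC and 9.51 in BCAA-control sham. Here both ratios had intervals that include 1, 0.998 (0.821 to 1.21) on the BCAA-free diet, which centring puts above 1, and 1.09 (0.909 to 1.30) on the BCAA-control diet, which centring puts below 1. The gene's other regions differed from each other. The downstream region at chr16:14174800-14184999 had the highest ratio of the 5 on the BCAA-free diet, 1.79 (1.56 to 2.07), against 1.19 (1.04 to 1.36) on the BCAA-control diet. The region centred in the gene at chr16:14247600-14266399 had 1.10 (0.988 to 1.23) on the BCAA-free diet and 0.823 (0.746 to 0.908) on the BCAA-control diet. In sham hearts all 5 Myh11 regions had lower signal on the BCAA-free diet than on the BCAA-control diet, with ratios from 0.713 to 0.888 and 2 of the 5 intervals clear of 1. The region at chr16:14271400-14273199 was called in BCAA-control sham alone, and the 3 regions called in all libraries had ratios below 1, with 2 intervals clear of it.

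Cnn1 encodes calponin, which binds actin and restrains myosin in smooth muscle. Its start region, chr9:22097800-22101799, holds the promoter window printed above and was called in the BCAA-control TAC library alone. Signal there was 5.40 in BCAA-free TAC, 4.76 in BCAA-free sham, 7.02 in BCAA-control TAC and 4.94 in BCAA-control sham. The BCAA-control TAC library, through which the region is in the table, had the highest value, and its gap to BCAA-free TAC, the next, was within counting error at 1.30 (0.990 to 1.72). The TAC-over-sham ratio was 1.13 (0.835 to 1.53) on the BCAA-free diet and 1.42 (1.07 to 1.89) on the BCAA-control diet.
The highest-mean Cnn1 region is a short stretch of 599 bp upstream, chr9:22095800-22096399, shared with Gm16845 and carrying 34.6 to 59.7 tags. Signal there was 14.5 in BCAA-free TAC, 15.6 in BCAA-free sham, 22.3 in BCAA-control TAC and 12.9 in BCAA-control sham. The region was called in BCAA-control TAC alone, which was also the highest library, by 1.43 (0.947 to 2.17) over BCAA-free sham. The ratios of this upstream region are thus descriptions. The ratio was 0.932 (0.585 to 1.47) on the BCAA-free diet and 1.72 (1.11 to 2.68) on the BCAA-control diet. The log2 difference between diets was -0.89 (-1.76 to -0.013). The downstream region at chr9:22115000-22133399, shared with Elof1 and Acp5, was the only Cnn1 region called in all libraries. Its TAC-over-sham ratio was 0.860 (0.779 to 0.948) on the BCAA-free diet. On the BCAA-control diet it was 1.09 (1.001 to 1.196), which centring puts below 1. Between diets in TAC hearts, its ratio of BCAA-free over BCAA-control was 0.726 (0.660 to 0.797).

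Tagln encodes transgelin (SM22), an actin-binding protein of smooth muscle. Its region, chr9:45927200-45939999, covers the start and is shared with Pcsk7 and Sidt2. Signal was 11.1 in BCAA-free TAC, 13.3 in BCAA-free sham, 14.7 in BCAA-control TAC and 13.8 in BCAA-control sham. BCAA-free TAC was the lowest and the other libraries lay together. The ratio was 0.836 (0.752 to 0.931) on the BCAA-free diet and 1.06 (0.964 to 1.17) on the BCAA-control diet. At the downstream region, chr9:45915800-45921799, the ratio on the BCAA-free diet was 0.798 (0.667 to 0.955).

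Smtn encodes smoothelin, an actin-binding protein of contractile smooth muscle. Its region of 49999 bp at chr11:3501400-3551399 holds 3 promoters and 2 CpG islands and is shared with Pla2g3, Inpp5j and Selm. Signal was 14.5 in BCAA-free TAC, 14.4 in BCAA-free sham, 17.0 in BCAA-control TAC and 15.5 in BCAA-control sham. Both BCAA-free libraries were below both BCAA-control libraries. The ratio was 1.01 (0.960 to 1.06) on the BCAA-free diet and 1.10 (1.05 to 1.15) on the BCAA-control diet, below the 1.21 at the median of all genes.

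Mylk encodes the kinase that phosphorylates the myosin light chain and so starts contraction. Its regions differed in direction. The highest-mean region, a domain of 70599 bp centred in the gene at chr16:34898600-34969199, shared with 1700119H24Rik and E130310I04Rik, had 24.6 in BCAA-free TAC, 21.0 in BCAA-free sham, 24.5 in BCAA-control TAC and 24.3 in BCAA-control sham. BCAA-free sham was low and the other libraries were alike. The ratio was 1.17 (1.13 to 1.21) on the BCAA-free diet and 1.01 (0.976 to 1.04) on the BCAA-control diet.
The Mylk region closest to the start, chr16:34806600-34808199, is a stretch of 1599 bp centred 22449 bp into the gene. Signal there was 4.58 in BCAA-free TAC, 9.56 in BCAA-free sham, 8.26 in BCAA-control TAC and 6.49 in BCAA-control sham, on 32.7 to 68.2 tags. BCAA-free TAC, the one library in which it was not called, was the lowest and BCAA-free sham the highest. The ratio was 0.479 (0.310 to 0.746) on the BCAA-free diet and 1.27 (0.858 to 1.93) on the BCAA-control diet, a log2 difference of -1.41 (-2.23 to -0.59). The last region, at chr16:34990200-34999399, also had a low ratio on the BCAA-free diet, 0.576 (0.493 to 0.669), beside 0.956 (0.831 to 1.10) on the BCAA-control diet.

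**Figure D2:**
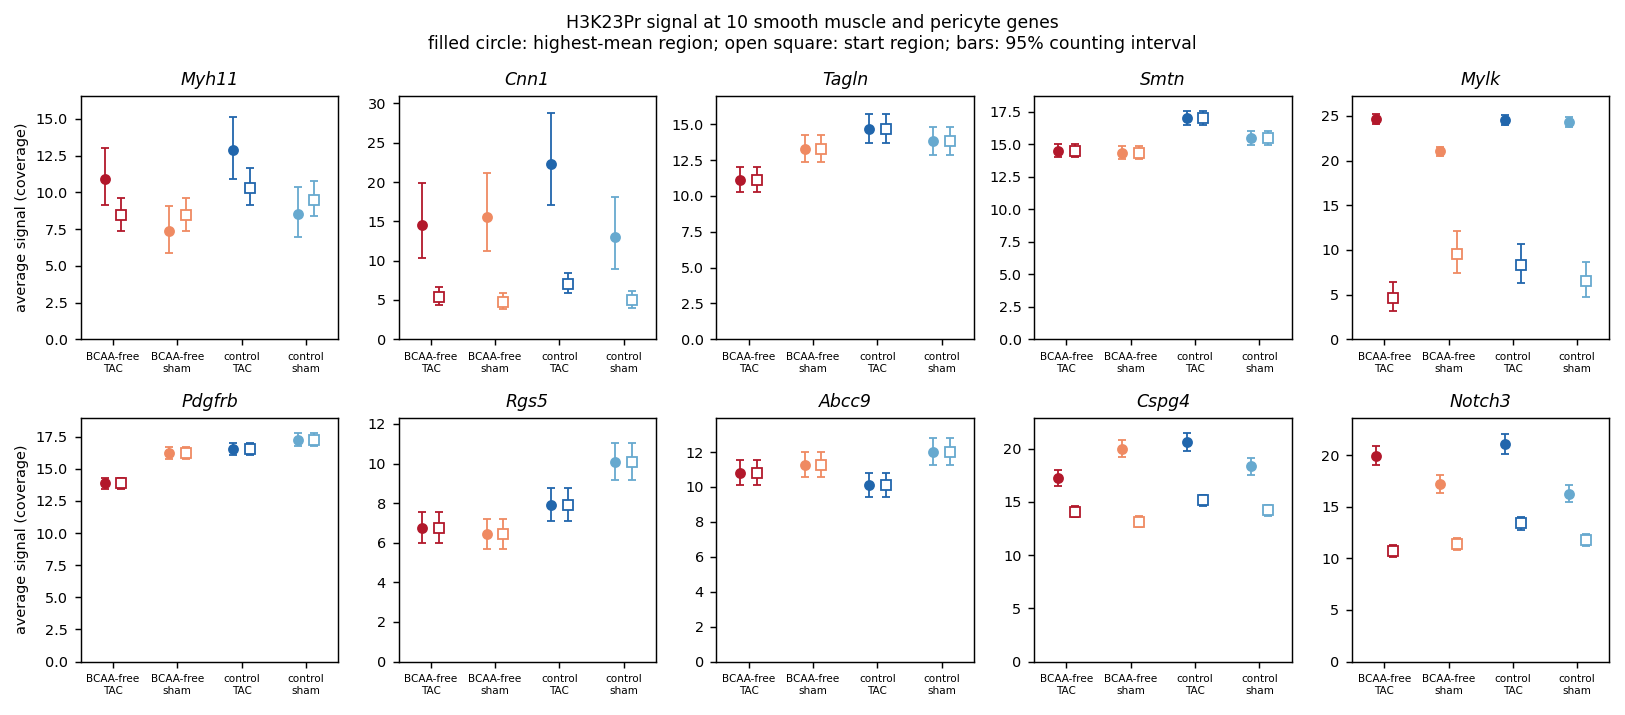
Average signal of each gene in each library, BCAA-free TAC, BCAA-free sham, BCAA-control TAC and BCAA-control sham from left to right, at the highest-mean region (filled circles) and the start region (open squares); bars are 95% counting intervals and each vertical axis starts at 0. Rgs5 is highest in BCAA-control sham, at 10.1, and Tagln lowest in BCAA-free TAC, at 11.1.

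Among the pericyte genes, Pdgfrb encodes the receptor through which endothelial PDGF-B recruits pericytes. Its region of 65399 bp, chr18:61032200-61097599, holds the start and is shared with Cdx1 and with Csf1r, a macrophage receptor gene, so the value belongs to the whole domain. Signal was 13.9 in BCAA-free TAC, 16.3 in BCAA-free sham, 16.6 in BCAA-control TAC and 17.3 in BCAA-control sham. BCAA-free TAC stood below the other libraries. The ratio was 0.854 (0.819 to 0.891) on the BCAA-free diet and 0.959 (0.922 to 0.998) on the BCAA-control diet.

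Rgs5, a regulator of G-protein signalling used as a pericyte marker, had its region at chr1:169651800-169661799, over the gene's start, with no CpG island. Signal was 6.73 in BCAA-free TAC, 6.43 in BCAA-free sham, 7.92 in BCAA-control TAC and 10.1 in BCAA-control sham. The BCAA-control sham library was the highest, BCAA-control TAC came next, and both BCAA-free libraries lay below with no difference beyond counting error between them. The TAC-over-sham ratio was 1.05 (0.886 to 1.23) on the BCAA-free diet and 0.786 (0.682 to 0.906) on the BCAA-control diet. The log2 difference between diets was 0.41 (0.10 to 0.72), where the median of all genes was -0.32.

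Abcc9 encodes the sulphonylurea receptor SUR2, the regulatory subunit of the ATP-sensitive potassium channel of mural cells and also of cardiomyocytes. Its start region, chr6:142686600-142705199, had 10.8 in BCAA-free TAC, 11.3 in BCAA-free sham, 10.1 in BCAA-control TAC and 12.0 in BCAA-control sham. The libraries lay close, with BCAA-control TAC the lowest. The ratio was 0.956 (0.872 to 1.05) on the BCAA-free diet and 0.839 (0.764 to 0.920) on the BCAA-control diet. All 7 Abcc9 regions were lower in TAC on the BCAA-control diet, with ratios from 0.693 to 0.902, and 5 of the 7 intervals were clear of 1. Of these regions 3 were called in BCAA-control sham and not in BCAA-control TAC, so their direction is partly built in. The 4 called in all libraries had ratios from 0.824 to 0.902, with 3 intervals clear of 1. On the BCAA-free diet 5 of the 7 were below 1, and the ratios ran from 0.837 to 1.44. Between diets in TAC hearts, BCAA-free signal exceeded BCAA-control signal at all 7, with ratios from 1.06 to 1.68 and 1 interval clear of 1. That interval belonged to chr6:142634000-142636999, which was called in every library but BCAA-control TAC, with 11.3 in BCAA-free TAC, 7.84 in BCAA-free sham, 6.72 in BCAA-control TAC and 8.55 in BCAA-control sham, where BCAA-free TAC stood above the rest. The 4 regions called in all libraries had ratios between diets from 1.06 to 1.11, and 0 intervals were clear of 1. These regions share a gene and are not replicates.

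Cspg4 encodes the NG2 proteoglycan of the pericyte surface. At its start region, chr9:56857400-56904199, a domain of 46799 bp shared with Odf3l1, signal was 14.1 in BCAA-free TAC, 13.1 in BCAA-free sham, 15.2 in BCAA-control TAC and 14.2 in BCAA-control sham. The ratio was 1.07 on both diets, with intervals of 1.02 to 1.13 on the BCAA-free diet and 1.01 to 1.12 on the BCAA-control diet. The highest-mean region lies downstream, at chr9:56906600-56932799, and is shared with Snx33 and Imp3. Signal there was 17.3 in BCAA-free TAC, 20.0 in BCAA-free sham, 20.6 in BCAA-control TAC and 18.4 in BCAA-control sham, so the order of TAC and sham differed between diets.

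Notch3 encodes the Notch receptor of vascular smooth muscle and pericytes. At its start region, chr17:32155800-32183799, which holds 2 CpG islands and is shared with Ephx3, signal was 10.7 in BCAA-free TAC, 11.4 in BCAA-free sham, 13.4 in BCAA-control TAC and 11.8 in BCAA-control sham. BCAA-control TAC was the highest. The ratio was 0.936 (0.868 to 1.01) on the BCAA-free diet and 1.14 (1.06 to 1.22) on the BCAA-control diet. The highest-mean region lies downstream, at chr17:32104800-32124999, with 19.9 in BCAA-free TAC, 17.2 in BCAA-free sham, 21.0 in BCAA-control TAC and 16.3 in BCAA-control sham. There both TAC libraries were above both sham libraries, with a ratio of 1.16 (1.08 to 1.24) on the BCAA-free diet and 1.29 (1.21 to 1.39) on the BCAA-control diet.

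**Figure D3:**
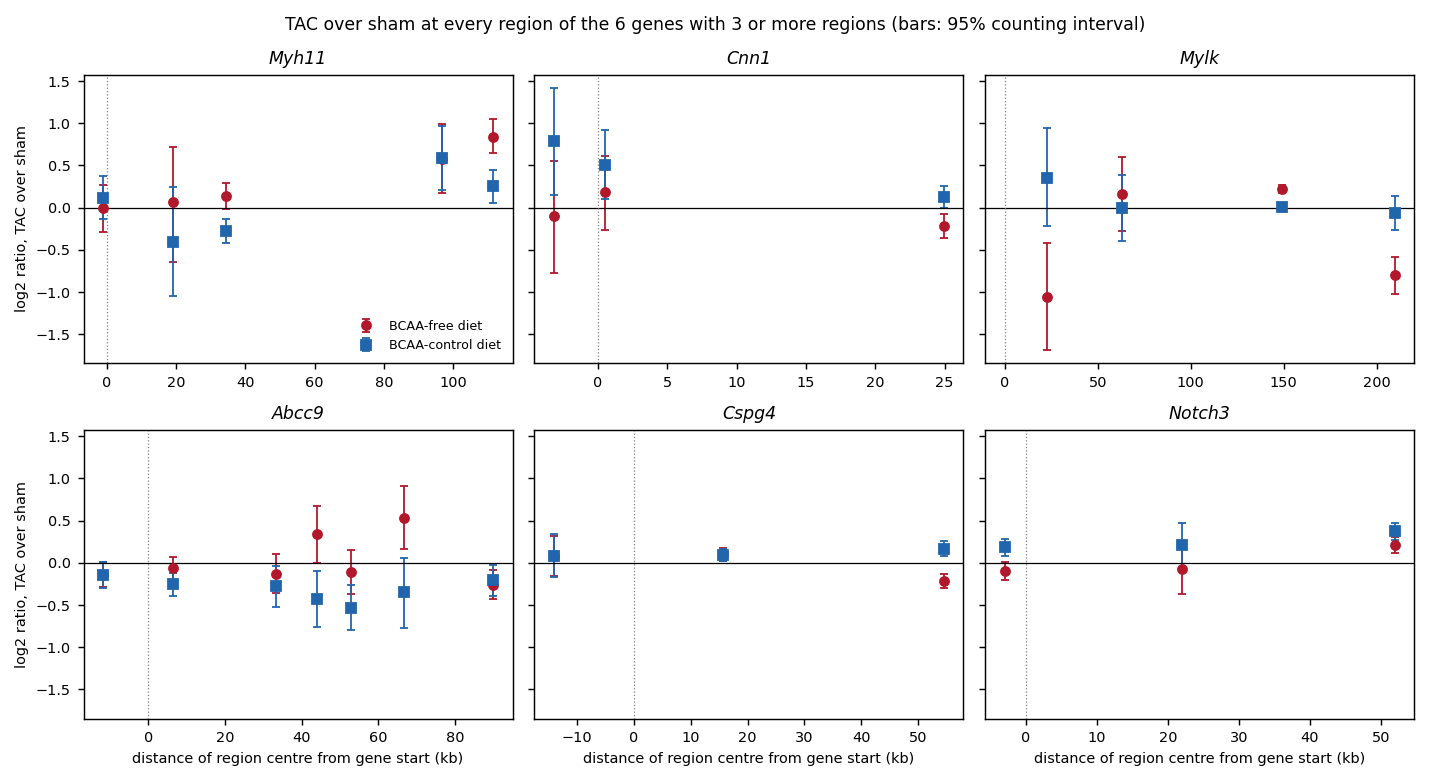
Log2 ratio, TAC over sham, at every region of the 6 genes with 3 or more regions, against the distance of the region's centre from the gene start in kb; BCAA-free diet in red, BCAA-control diet in blue, bars 95% counting intervals. All 7 Abcc9 regions, 3 of them not called in BCAA-control TAC, lie below 0 on the BCAA-control diet, and the regions of Mylk on the BCAA-free diet run from a log2 ratio of -1.06 to 0.23.

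In the order of levels over the 4 libraries, BCAA-control TAC was the highest for 6 of 10 genes at either kind of region, and BCAA-control sham for 3. The lowest library at the start region was BCAA-free TAC for 5 genes, BCAA-free sham for 4 and BCAA-control TAC for 1. Of the 30 pairs of neighbours in these orders, 10 differed beyond counting error and 20 did not, at the highest-mean region as at the start region. The orders were not counted over all genes, so the counts of highest and lowest library are not a result about the list. At the highest-mean region 88.0% of all genes were higher in BCAA-control TAC than in BCAA-control sham. Only 12.9% were higher in BCAA-free TAC than in BCAA-control TAC.

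The second question was what the diet did with the surgery held fixed. These comparisons use the same 4 libraries as those above. In TAC hearts 8 of 10 genes had lower signal on the BCAA-free diet at the highest-mean region and 9 of 10 at the start region, where Abcc9 was the exception at 1.07 (0.973 to 1.18). Of all genes, only 12.9% lay above 1 at the highest-mean region and 13.1% at the start region, so these counts are near the background. Over all regions the median log2 ratio was -0.22, and 29.7% of regions lay above 1. Centring on that median put Notch3 above 0 at the highest-mean region and Cspg4 at the start region. The median of the 10 genes was -0.24, beside -0.31 over all genes. At least 1.5-fold lower was 1 of 10 at the highest-mean region (Cnn1, ratio 0.651, interval 0.423 to 0.989), where 11.7% of all genes were, and 1 at the start region (Mylk, 0.554, 0.354 to 0.871), where 12.2% were. That Cnn1 region was called in BCAA-control TAC alone, and that Mylk region in every library but BCAA-free TAC. The direction of both is thus partly built in, and their ratios are descriptions. At least 1.5-fold higher were 0 genes at either region, where 1.11% of all genes were at the highest-mean region and 1.21% at the start region. Of the 30 regions, 1 was higher, where 5.21% of all regions were, and 2 were lower, where 12.6% were.

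In sham hearts Rgs5 stood furthest from 1. Its ratio of BCAA-free over BCAA-control was 0.639 (0.549 to 0.743), the 1 gene of 10 at least 1.5-fold lower, where 1.42% of all genes were at the highest-mean region and 1.63% at the start region. No gene was at least 1.5-fold higher, where 1.21% of all genes were at the highest-mean region and 1.28% at the start region. Of the 30 regions, 0 were higher, where 4.05% of all regions were, and 1 was lower, where 4.14% were. At the highest-mean region 3 genes lay above 1 and 7 below, where 52.3% of all genes were above. At the start region 1 lay above and 9 below, where 50.8% of all genes were above. The median log2 ratio of the 10 was -0.089 at both, beside 0.011 over all genes at the highest-mean region and 0.0044 at the start region. At the start region intervals were clear of 1 downward for Smtn at 0.927 (0.883 to 0.973), Pdgfrb at 0.941 (0.904 to 0.979), Cspg4 at 0.923 (0.876 to 0.972) and Rgs5. Cnn1, Mylk, Cspg4 and Notch3 lay on opposite sides of 1 at their 2 regions. Mylk was above 1 at its start region, at 1.47 (1.00 to 2.20), and below at its highest-mean region, at 0.865 (0.837 to 0.894). Cspg4 was above 1 at its highest-mean region, at 1.09 (1.03 to 1.16).

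Subtracting the BCAA-control log2 ratio of TAC over sham from the BCAA-free one gave values below 0 in 7 of 10 genes at the highest-mean region. Of all genes, 16.8% lay above 0 there. The median of the 10 genes was -0.14, beside -0.32 over all genes. Once centred the median was 0.060, beside -0.12 over all genes, so its direction depended on scaling. Intervals were clear of 0 upward for Mylk (0.22, 0.15 to 0.28), Rgs5 and Abcc9 (0.19, 0.0014 to 0.38), and downward for Cnn1, Tagln, Smtn, Pdgfrb, Cspg4 and Notch3. The Cnn1 region was called in BCAA-control TAC alone, so its direction is partly built in. Centring put Smtn, Pdgfrb and Notch3 above 0, at 0.078, 0.034 and 0.041, and Myh11 at 0.18. At the start region the Mylk value was opposite in sign, on a region called in every library but BCAA-free TAC. The start-region intervals of Cnn1 (-0.33, -0.90 to 0.25) and Cspg4 (0.011, -0.093 to 0.12) included 0.

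Other genes of the mural programme and of its signalling were read at their highest-mean regions, from 4 lists of 64 genes. The lists were contractile genes, transcriptional regulators, pericyte genes, and PDGF, Notch, potassium channel and endothelin signalling genes. Not all are genes of mural cells: Tcf21 and Pdgfra are also in the list of fibroblast markers used below, and Tek in that of endothelial markers. Of 24 contractile genes, 20 lay above 1 in TAC over sham on the BCAA-control diet, near the 88.0% of all genes that did. Their median log2 ratio was 0.21, beside 0.27 over all genes. Of 12 pericyte genes, 4 lay above 1 and 8 below, with a median of -0.10, beside 0.27 over all genes. Of 17 signalling genes 15 lay above 1 and of 11 regulators 10 did, both again near the 88.0% of all genes. The median was 0.31 for signalling genes and 0.12 for regulators. Centring lowers each of these medians by 0.17, which takes the regulators below 0. Of the 64 genes, 2 were at least 1.5-fold higher and 0 lower on this diet, where 5.86% of all genes were higher and 0.694% lower. On the BCAA-free diet 5 of the 64 were higher, 2 of them (Kcnj11 and Abcc8) on the same region, and 4 lower, where 3.79% of all genes were higher and 4.88% lower. There 2 of 12 pericyte genes lay above 1, where 42.0% of all genes did, with a median of -0.17, beside -0.044 over all genes.

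**Figure D4:**
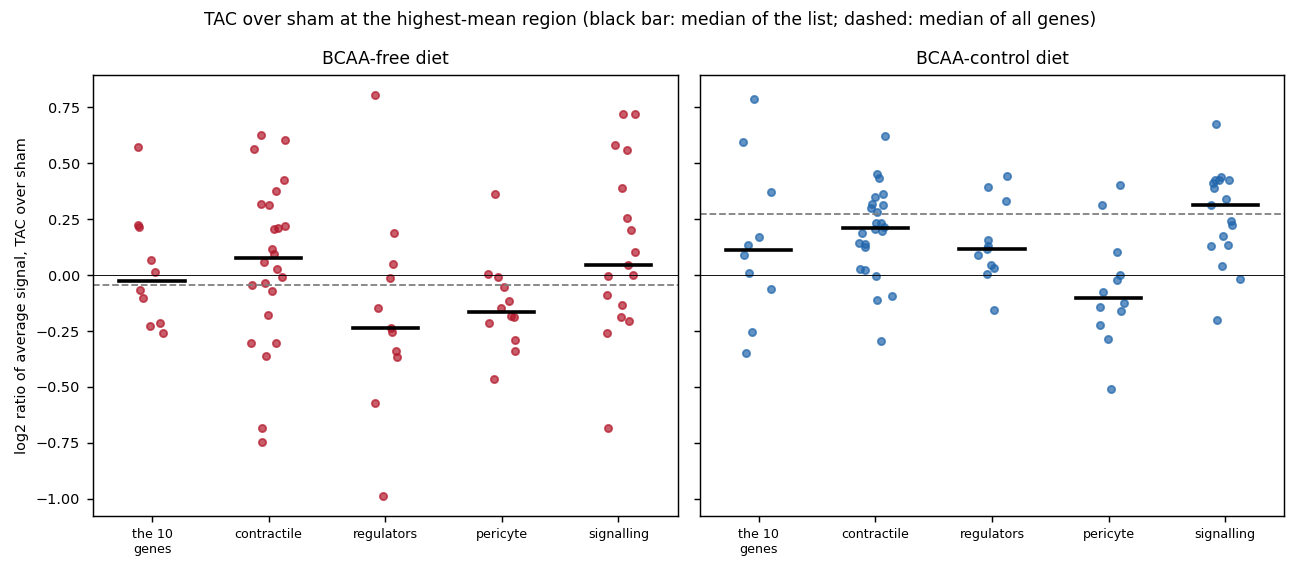
Log2 ratio of average signal, TAC over sham, at the highest-mean region, for the 10 genes and the 4 lists of related genes (24 contractile, 11 regulators, 12 pericyte, 17 signalling), on the BCAA-free diet (left) and the BCAA-control diet (right); black bars are list medians and dashed lines the median of all genes. The pericyte list has a median below 0 on both diets, at -0.17 on the BCAA-free diet and -0.10 on the BCAA-control diet.

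Highest of the related genes on the BCAA-free diet was Myocd, the cofactor of serum response factor that drives smooth muscle and cardiac genes. Its signal was 17.8 in BCAA-free TAC and 10.1 in BCAA-free sham, a ratio of 1.75 (1.68 to 1.83). Kcnj11 and Abcc8, which encode pore and receptor subunits of ATP-sensitive potassium channels, share 1 region that had 22.4 in BCAA-free TAC and 13.6 in BCAA-free sham, a ratio of 1.65 (1.55 to 1.76). That region is also assigned to Nomo1, and the Myocd region to Gm12295. Lowest were Tcf21, a transcription factor of epicardial cells and fibroblasts, with 10.7 in BCAA-free TAC and 21.2 in BCAA-free sham, Ppp1r14a, an inhibitor of myosin phosphatase, with 16.8 and 28.2 in the same libraries, and Ppp1r12b, a myosin phosphatase subunit, with 16.5 and 26.5. The Tcf21 region is shared with Gm10824 and the Ppp1r14a region with Spint2 and Dpf1. The Ppp1r12b region is shared with Syt2 and lies downstream, centred 193741 bp from the start of Ppp1r12b.

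Highest on the BCAA-control diet were Ednrb, an endothelin receptor, with 25.1 in BCAA-control TAC and 15.7 in BCAA-control sham, a ratio of 1.60 (1.43 to 1.78), Pdlim7 at 1.54 (1.44 to 1.65) and Mcam at 1.37 (1.30 to 1.44). The Pdlim7 region is shared with Dok3 and the Mcam region with Gm10687 and Cbl. Lowest were Gucy1b3, a subunit of the nitric oxide receptor guanylate cyclase, with 7.94 in BCAA-control TAC and 11.3 in BCAA-control sham, a ratio of 0.703 (0.627 to 0.788), Itga8 at 0.816 (0.665 to 1.01) and Angpt1, the pericyte ligand of the endothelial receptor Tek, at 0.821 (0.701 to 0.961). The Itga8 region is shared with E030013I19Rik.

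Between diets in TAC hearts the highest ratios of BCAA-free over BCAA-control were those of Myocd at 1.95 (1.87 to 2.04), Synpo2 at 1.57 (1.45 to 1.70) and Abcc8 at 1.31 (1.24 to 1.39). The Synpo2 region is centred in the gene, 148950 bp from its start. The lowest were Ppp1r14a at 0.627 (0.574 to 0.685), Ednrb at 0.656 (0.589 to 0.729) and Colec11 at 0.677 (0.589 to 0.777). The Colec11 region is shared with Rps7 and lies upstream by its centre. In sham hearts the highest were Tcf21 at 1.35 (1.246 to 1.455), Pdgfra at 1.26 (1.18 to 1.33) and Ppp1r12b at 1.24 (1.19 to 1.30). The Pdgfra region is shared with Gm19583. The lowest were the ligands Dll4 of Notch at 0.678 (0.644 to 0.714), Pdgfd at 0.710 (0.610 to 0.826) and Pdgfb, which binds the Pdgfrb receptor, at 0.736 (0.702 to 0.771). The Dll4 region is shared with Vps18 and Gm14207 and lies upstream by its centre. Pdgfb had 16.5 in BCAA-free sham and 22.5 in BCAA-control sham, where its receptor's region had 16.3 and 17.3.
A pair of genes was named after their values were seen. Acta2, smooth muscle actin, had 7.54 in BCAA-free TAC, 7.73 in BCAA-free sham, 8.16 in BCAA-control TAC and 8.71 in BCAA-control sham. Kcnj8, the channel pore that pairs with the Abcc9 product, had 8.41 in BCAA-free TAC, 9.55 in BCAA-free sham, 10.7 in BCAA-control TAC and 10.9 in BCAA-control sham. Both were lowest in BCAA-free TAC and highest in BCAA-control sham, but some gaps were small and none was set against counting error.

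Markers of the other cells in the heart differed between the groups. On the BCAA-free diet the summed signal of 10 cardiomyocyte markers was 184.3 in TAC and 135.0 in sham, and that of 10 fibroblast markers was 108.6 in TAC and 172.3 in sham. Endothelial markers summed to 195.4 in TAC and 162.1 in sham over 10 genes, and macrophage markers to 124.5 and 154.7 over 9. Ratios of TAC over sham on this diet lay above 1 for 10 cardiomyocyte, 0 fibroblast, 6 endothelial and 1 macrophage markers. Of all genes 42.0% lay above 1. On the BCAA-control diet the sums in TAC and sham were 146.7 and 126.9 for cardiomyocyte, 131.7 and 131.0 for fibroblast, 236.0 and 196.7 for endothelial and 182.9 and 152.8 for macrophage markers. Ratios there lay above 1 for 9 cardiomyocyte, 4 fibroblast, 9 endothelial and 5 macrophage markers, and 88.0% of all genes lay above 1. A sum can thus rest on a few strong regions while other markers of the list go the other way. The 10 mural genes at their highest-mean regions summed to 144.3 in BCAA-free TAC, 142.8 in BCAA-free sham, 167.6 in BCAA-control TAC and 149.1 in BCAA-control sham. The 9 macrophage markers lay on 8 regions, so a region enters their sum more than once. They include Csf1r, to which the Pdgfrb region of the mural sum is also assigned, so the macrophage and mural sums can share a region. No marker with a region had a signal of 0 in any library. The part of cell composition in the values of the 10 genes was not tested.

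The genes with and without a CpG island were also read apart. On the BCAA-control diet the median log2 ratio of TAC over sham over all genes was 0.30 with an island at the highest-mean region and 0.14 without. The 4 members with an island (Smtn, Pdgfrb, Cspg4 and Notch3) had a median of 0.15, and the 6 without had 0.049. Both lay below all genes of their kind.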

How the data were processed

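H3K23Pr ChIP-seq of mouse heart, with 1 library (a pool of 3 hearts) for each of 4 groups, was read from a table of merged regions. The tools BWA and MACS2 and the build mm10 come from the submitters' processing notes, which state neither role nor version. Per the file headers, each region has for each library its signal (coverage) as a mean and as a maximum; how libraries were scaled and whether input was used is not given in the sources used here. The authors' deposited log2 ratios of average signal equalled those recomputed here to within 8.88e-16.

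Tags were approximated as average signal times length over 224, the divisor that the deposited maximum tag numbers imply. Summed over regions they came to 17.1 M in BCAA-free TAC, 17.0 M in BCAA-free sham, 18.9 M in BCAA-control TAC and 16.9 M in BCAA-control sham. If the authors scaled the tags, the intervals change.

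The 10 members and the gene lists were chosen with earlier results of these data known. All members are named, and of the 64 related genes the 3 highest and 3 lowest ratios of each comparison. Acta2 and Kcnj8 were named besides, after their values were seen. Ratios carry exact 95% binomial intervals from scipy 1.17.1, which cover counting error only, and were tested on simulated tags. A log2 difference between diets carries a normal interval. With 1 library per group no test was run. Each gene was represented by its region of highest mean signal. For the start region, distance was taken to the region's edge rather than to its centre as the authors give it, which changed the region of 1 member (Cspg4). Alternatives were the start region, the mean of all regions, peak signal, pseudocounts of 1 and 5, centring on the median of all regions, and a lower and a higher fold threshold.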

Additional observations from a re-analysis of the deposited data

Results flagged for a closer look

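The highest-mean region of Cspg4, which lies downstream of the gene, had TAC-over-sham ratios on opposite sides of 1 on the diets, each with its counting interval clear of 1. The ratio was 0.863 (0.813 to 0.916) on the BCAA-free diet and 1.12 (1.06 to 1.19) on the BCAA-control diet. Centred on the median of all regions, the BCAA-control log2 ratio was -0.0013 and the BCAA-free one -0.18, so the opposite direction was lost. The difference was not tested, since each group had 1 library. At the Cspg4 start region the ratio was 1.07 on both diets. The downstream region is shared with Snx33 and Imp3.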

How the results depend on the processing

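No paired analysis was possible because each group had 1 library. Over the 50 values of single genes, 50 stayed within their counting interval with a pseudocount of 1, 48 with a pseudocount of 5, 39 with the mean of all regions, 35 with the start region, 35 with the region of nearest centre (added after seeing the data), 30 when centred and 15 with peak signal.

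Peak signal moved the median log2 ratio of the 10 genes to -0.26 for TAC over sham on the BCAA-free diet, 0.33 on the BCAA-control diet, -0.58 for BCAA-free over BCAA-control in TAC hearts and -0.54 for the difference between diets. The same medians over all genes were -0.18, 0.38, -0.53 and -0.56. Centring moved it to -0.059 for TAC over sham on the BCAA-control diet and 0.060 for the difference between diets.

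Counts past the threshold rested on few genes; the share of all genes stands in brackets. Higher in TAC on the BCAA-control diet were 0 at the start region (6.03%), with the region of nearest centre (6.21%), with the mean of all regions (4.39%) or at 2-fold (0.463%). It was 1 (Cnn1) with a pseudocount of 1 (4.33%) or 5 (1.14%) or when centred (1.64%), and 3 (Myh11, Cnn1 and Notch3) by peak signal (19.1%) or at the lower of the other thresholds (39.8%). Lower on that diet was 1 (Rgs5) at the lower threshold (2.27%). On the BCAA-free diet 1 gene (Mylk) was lower at the start region by edge (5.09%) or by centre (5.16%), and 1 (Myh11) was higher when centred (4.37%) or at the lower threshold (10.5%). In TAC hearts, lower on the BCAA-free diet were 5 by peak signal (41.7%), 2 (Cnn1 and Tagln) at the lower threshold (48.4%), and 0 with the mean of all regions (9.0%), a pseudocount of 5 (2.79%), centring (3.04%) or 2-fold (1.09%). In sham hearts the count was 0 with a pseudocount of 1 (0.942%) or 5 (0.165%) or at 2-fold (0.204%). The cause was not tested. Depth limits the short regions: the upstream Cnn1 region and the Mylk start region held under 70 tags in every library.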
